A study of Komagataella phaffii with 18 samples.

Results

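The features described here are 60 genes of the yeast Komagataella phaffii that had far fewer reads in acetate medium than in YPD in each of 3 strains, with similar acetate levels across the strains. They were chosen from the measured values. The deposited estimated count of a gene was divided by the total of its library and scaled to CPM, the counts per 1000000 in that library, and each group was the mean of its 3 libraries. A gene was kept when each YPD group had at least 50 CPM and when the acetate to YPD ratio was at most 0.2 in every strain, with 5 CPM added to both sides. In addition, the 3 ratios between the acetate means of the strains, with the same 5 CPM added, had to lie above 0.5 and below 2. Of 5341 features in the files, 4831 met conditions on the ID (chromosomes 1 to 4, serial number of at least 75) and on length (over 300 bases), and 60 of these, or 1.24%, met the whole rule. The acetate against YPD difference of these genes is therefore given as a description and not as a finding.

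All samples carry the strain background CBS2612. The a-type strain has the genotype dic1-2Δ(a) and the α-type strain the genotype dic1-2Δ(α); both are heterothallic, meaning that they keep a single mating type, and each is represented by a single strain. The other strain is the wild type. Cells of each strain were taken from YPD, a rich medium of yeast extract, peptone and glucose, during exponential growth, and the same cultures were taken again once they had been kept for 24 h in acetate medium. The acetate step served to turn on mating genes. Each of the 6 groups had 3 libraries of polyadenylated RNA. The labels do not say that the 3 were grown as separate cultures, and p-values then cover only the spread among these libraries, part or all of which may be technical.

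Yeast cells growing fast on glucose devote much of their transcription to genes that build ribosomes, take up sugar and run glycolysis. When glucose is replaced by a poor carbon source such as acetate, growth slows, and acetate is used through the glyoxylate cycle and gluconeogenesis. These are general properties of yeasts, known best in Saccharomyces cerevisiae, and are no result of these data. The files do not pair the IDs with gene names, and 0 IDs matched the reference table at hand, so no function, name or sequence is given for any of the 60 genes. For the same reason the strain labels could not be checked against the gene in the genotypes or against the mating-type genes.

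Library totals ran from 637339 to 765524 estimated counts in the 9 acetate libraries and from 234044 to 309362 in the 9 YPD libraries. A count of 0 allows up to 3.92 to 4.71 CPM in an acetate library and up to 9.70 to 12.8 CPM in a YPD library, for counting error only. A value of a member in an acetate library rested on a median of 19 counts (range 0 to 939), and 129 of 540 such values rested on fewer than 10 counts. In YPD the median was 98 counts (range 0 to 2971), and 11 of 540 values rested on fewer than 10. Medium, growth phase and time in culture differ together between the groups and cannot be told apart. In RNA from whole cultures, less RNA of a gene per cell and fewer cells that express it cannot be told apart either.

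The rule was applied in steps. Of 4831 genes, 2232 had at least 50 CPM in each YPD group, 244 of these were at or under the ratio of 0.2 in 1 strain or more, and 70 were in every strain. The limits on the strain ratios then left out 10, of which 9 had their lowest acetate mean in wild type and 1 its highest. In the 60 that remained, the median acetate to YPD ratio was 0.125 in a-type, 0.11 in α-type and 0.0853 in wild type. Expressed as folds, the acetate means were lower by a median of 8.0-fold (5.01 to 30.8) in a-type, 9.10-fold (5.06 to 64.0) in α-type and 11.7-fold (5.06 to 161) in wild type. Over the 2232 genes with enough reads in YPD, the median ratio was 0.811, 0.834 and 0.705 in the same order of strains. Averaged over the strains on the log scale, 2 genes were at least 32-fold lower in acetate, 7 were 16-fold to 32-fold lower, 33 were 8-fold to 16-fold lower and 18 were between 5-fold and 8-fold lower.

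**Figure D1:**
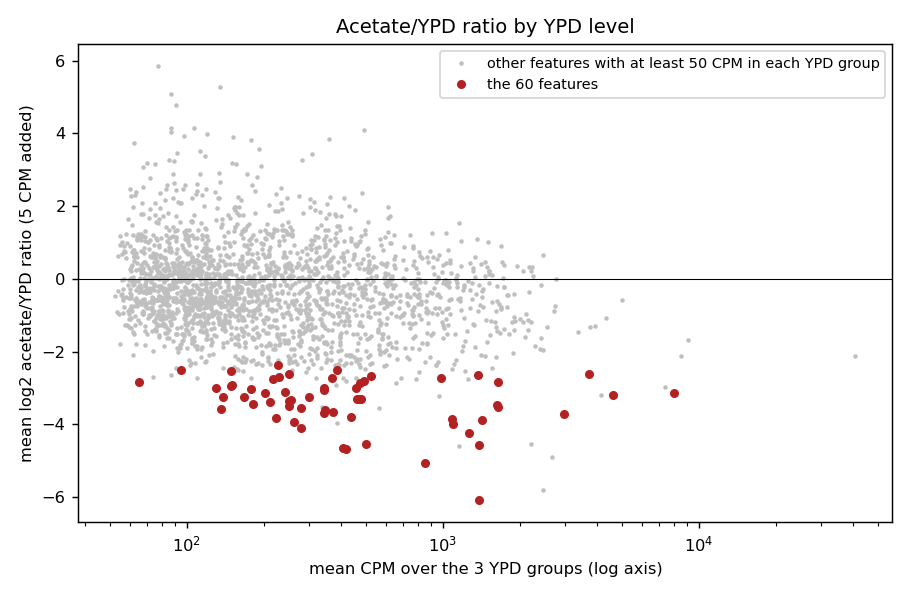
Log2 acetate to YPD ratio of each gene, averaged over the strains (vertical), against its mean CPM over the YPD groups (horizontal, log scale) for the 2232 genes with at least 50 CPM in each YPD group, with the 60 members in red and the others in grey. The members lie between 64.8 and 7969 CPM in YPD, and the 2 lowest of them are PP7435_Chr3-0228 and PP7435_Chr1-2632.

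In total reads the 60 genes were a much smaller part of the acetate libraries than of the YPD libraries. They held 0.535 ± 0.0381% of the counts in a-type, 0.496 ± 0.0235% in α-type and 0.366 ± 0.0281% in wild type in acetate. In YPD they held 4.38 ± 0.426% in a-type, 4.83 ± 0.476% in α-type and 5.13 ± 0.603% in wild type (SD, n = 3 each). The highest share in any acetate library was 0.574% and the lowest in any YPD library was 3.92%, so the media did not overlap. The rule bounded the ratio of group means of every member, so a much lower share in acetate was set in advance. The 3 genes with the most reads, PP7435_Chr3-1214, PP7435_Chr3-0190 and PP7435_Chr1-0169, held 43.6% of the members' acetate counts and 34.0% of their YPD counts.

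**Figure D2:**
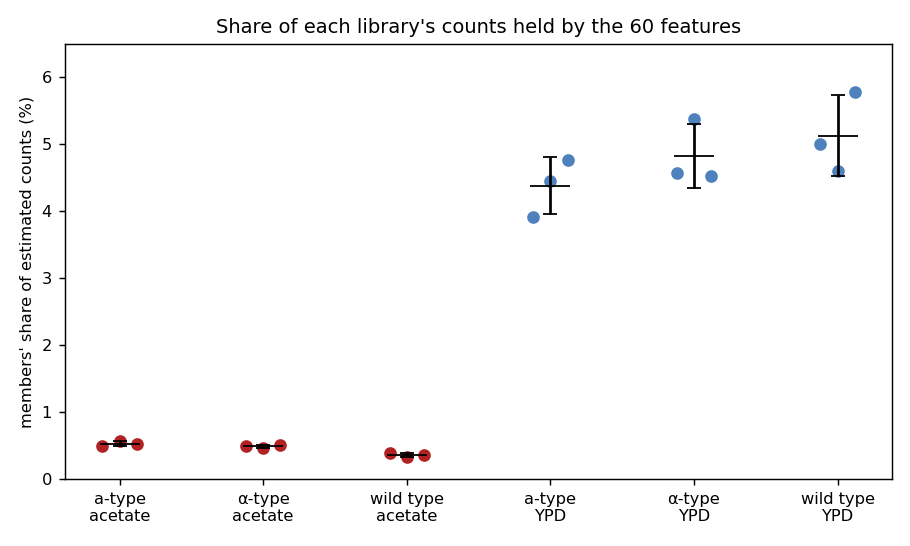
Share of each library's estimated counts held by the 60 genes (vertical, percent) in the 6 groups, with 1 point per library and bars for the mean ± SD (n = 3). All 9 acetate libraries lie at or below 0.574% and all 9 YPD libraries at or above 3.92%.

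The members were not alike in level. On the deposited TPM scale, which divides by length and so allows genes to be compared, the mean over the acetate groups had a median of 27.9 TPM (3.02 to 899) among members, and the mean over the YPD groups a median of 267 TPM (44.8 to 6822). All 4831 genes had medians of 39.8 TPM in acetate and 34.8 TPM in YPD. Ranked among these genes by TPM, the median member stood at percentile 40.4 in acetate and at percentile 87.4 in YPD. The rule required at least 50 CPM in each YPD group, which only 2232 of the 4831 genes had. The high YPD levels and ranks of members were therefore partly set in advance. Ranks after the change ran from percentile 0.724 to 96.7, so some members were still among the abundant transcripts in acetate. The coding length of members had a median of 1164 bases (369 to 5577), against 1212 bases in all 4831.

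In nearly all members the replicates of the media were separated. In 55 of 60 genes no acetate library of any strain reached a YPD library of the same strain, and in 53 all 9 acetate libraries lay below all 9 YPD libraries. The rule chose members by the same values, so this separation is a description. Shares over all genes were counted only within each strain, as given below. An overlap occurred in 1 gene in a-type (PP7435_Chr4-0270), in 0 in α-type and in 4 in wild type (PP7435_Chr1-0360, PP7435_Chr2-1271, PP7435_Chr2-2067 and PP7435_Chr3-0187). Among the 2232 genes, 33.5% in a-type, 38.5% in α-type and 45.1% in wild type had all acetate libraries below all YPD libraries. With edgeR's quasi-likelihood test across 4783 features, 60 of 60 members were called lower in a-type (background 19.2%), 60 of 60 in α-type (19.6%) and 59 of 60 in wild type (23.3%), and the rule used this contrast. The exception was PP7435_Chr4-0270 in wild type, with a log2 fold change of -2.48 (SE 1.05). DESeq2 called 60 members in a-type, 59 in α-type and 57 in wild type. PP7435_Chr1-0360 was not called in α-type. In wild type PP7435_Chr1-0360, PP7435_Chr2-1271 and PP7435_Chr4-0270 were not. No share over all features is given here for DESeq2, so these counts are a description only.

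**Figure D3:**
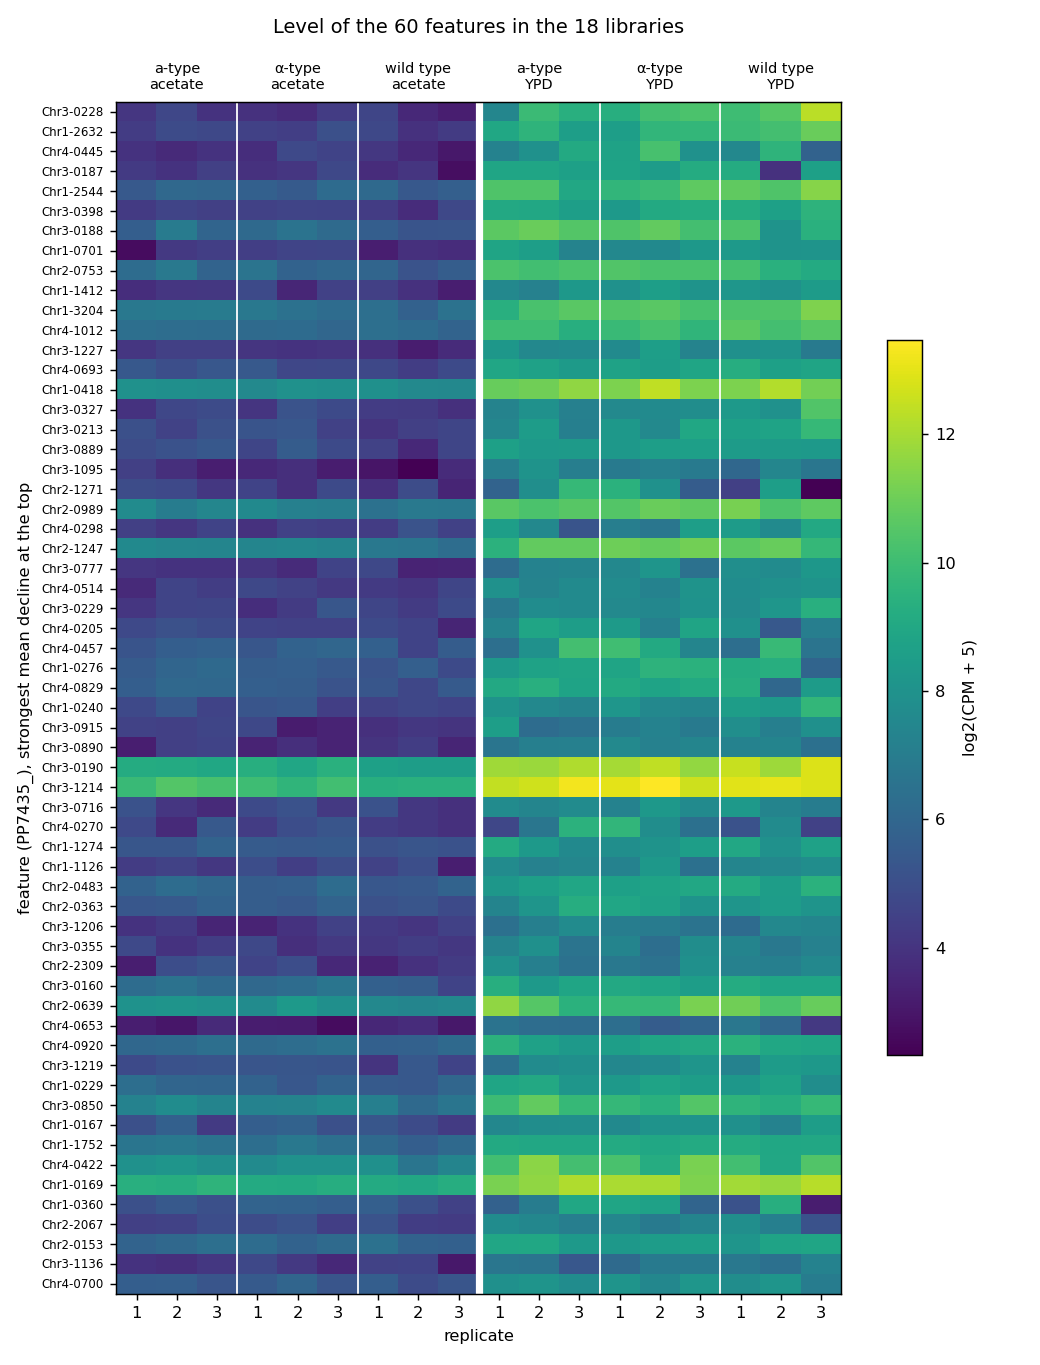
Level of each of the 60 genes (rows, ordered by their mean acetate to YPD ratio) in each of the 18 libraries (columns, acetate left of YPD), as log2(CPM + 5). The acetate columns are low in almost every row, and the rows with low cells among the YPD columns include PP7435_Chr1-0360, PP7435_Chr2-1271 and PP7435_Chr4-0270.

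The lowest ratio among the members belonged to PP7435_Chr3-0228, a short gene with a coding length of 513 bases. In acetate it had 11.9, 21.2 and 10.7 CPM for a-type, 10.2, 7.84 and 14.6 CPM for α-type, and 20.5, 7.04 and 4.71 CPM for wild type. In YPD it had 166, 973 and 657 CPM for a-type, 632, 1117 and 1281 CPM for α-type, and 1018, 1458 and 5097 CPM for wild type. All acetate libraries were far below all YPD libraries, and replicate 3 of wild type in YPD stood above the rest. The fitted, TMM-scaled log2 fold change, acetate over YPD, was -5.25 (SE 0.65) in a-type, -6.51 (SE 0.68) in α-type and -7.61 (SE 0.70) in wild type.

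Next came PP7435_Chr1-2632 and PP7435_Chr4-0445. PP7435_Chr1-2632 had 14.8, 24.3 and 21.5 CPM for a-type, 17.5, 15.7 and 27.6 CPM for α-type and 21.8, 9.85 and 14.1 CPM for wild type in acetate. Its YPD values were 495, 753 and 371 CPM for a-type, 378, 802 and 831 CPM for α-type and 957, 1113 and 1957 CPM for wild type. The media were far apart, and all 3 wild-type libraries in YPD lay above all 6 of the other strains. By edgeR on the YPD libraries neither difference from wild type was called (adjusted p 0.609 for a-type and 0.999 for α-type). The log2 fold change, acetate over YPD, was -4.65 (SE 0.40) in a-type, -5.03 (SE 0.40) in α-type and -6.20 (SE 0.42) in wild type. PP7435_Chr4-0445 had 3.14 to 22.2 CPM in the 9 acetate libraries and 51.3 to 1193 CPM in the 9 YPD libraries, so its media did not overlap although its YPD values were widely spread.

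The most abundant members per length in YPD were PP7435_Chr3-0190, PP7435_Chr3-0228 and PP7435_Chr3-1214, with 6822, 3571 and 3282 TPM on average. In acetate PP7435_Chr3-0190 had 566, 564 and 491 CPM for a-type, 630, 485 and 669 CPM for α-type and 398, 360 and 367 CPM for wild type. In YPD it had 3754, 3520 and 4457 CPM for a-type, 3952, 5310 and 3249 CPM for α-type and 5931, 3670 and 7588 CPM for wild type. The media did not overlap, and wild type was lowest of the strains in acetate and had the 2 highest values in YPD. At 899 TPM in acetate, it was at percentile 96.7 there and at percentile 99.9 in YPD. PP7435_Chr3-0228, which had a similar rank in YPD, averaged 38.4 TPM in acetate, percentile 49.2.

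PP7435_Chr3-1214 had the most reads of all members. In acetate it had 946, 1423 and 1171 CPM for a-type, 1012, 771 and 1072 CPM for α-type and 622, 676 and 662 CPM for wild type. In YPD it had 5549, 6462 and 9889 CPM for a-type, 8238, 11292 and 6362 CPM for α-type and 8047, 8412 and 7469 CPM for wild type. The strains overlapped in YPD, whereas in acetate every wild-type library was below every other on this scale. Its log2 fold change was -2.59 (SE 0.26) in a-type, -3.18 (SE 0.27) in α-type and -3.35 (SE 0.27) in wild type. PP7435_Chr1-0169, next after these by reads, had 504 to 759 CPM in acetate and 2379 to 4991 CPM in YPD over the 9 libraries of each medium, and averaged 537 TPM in acetate.

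PP7435_Chr1-0240 was nearest to the middle of the members by its ratio. In acetate it had 22.3, 36.4 and 18.4 CPM for a-type, 33.5, 36.6 and 16 CPM for α-type and 17.7, 21.1 and 18.8 CPM for wild type. In YPD it had 258, 178 and 155 CPM for a-type, 281, 179 and 161 CPM for α-type and 359, 314 and 816 CPM for wild type. Its media did not overlap, and the 3 YPD values of wild type were above those of the other strains. Neither difference from wild type was called by edgeR on the YPD libraries (adjusted p 0.609 for a-type and 0.999 for α-type). The log2 fold change, acetate over YPD, was -2.87 (SE 0.41) in a-type, -2.83 (SE 0.40) in α-type and -4.44 (SE 0.42) in wild type.

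The limits of the rule cut through a continuous range of values. At the limit of 0.2, the members nearest to it were PP7435_Chr1-0169, with a highest ratio of 0.1998, and PP7435_Chr2-0153, with 0.198, and the nearest genes outside were PP7435_Chr4-0978, with 0.209, and PP7435_Chr2-0174, with 0.211. For the strain ratio, PP7435_Chr3-0160 and PP7435_Chr1-0701 were inside with lowest ratios of 0.519 and 0.525, and PP7435_Chr4-0528 and PP7435_Chr1-0664 outside with 0.495 and 0.453. For the YPD level, PP7435_Chr4-0653 and PP7435_Chr3-1136 were inside with lowest group means of 58.2 and 76.0 CPM, and PP7435_Chr3-2183 and PP7435_Chr3-1096 outside with 48.6 and 30.7 CPM. When each of the 18 libraries was left out in turn, 32 of the 60 genes met the rule every time.

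Members differed in how steady they were among YPD replicates. The SD of log2(CPM + 5), averaged over the YPD groups, had a median of 0.534 among members (0.0826 to 2.36) and of 0.417 among the 2232 genes. The same SD over the acetate groups had a median of 0.345 among members and 0.193 among the 2232, where members also had fewer counts. The rule used group means, which a single high YPD library can raise, so the YPD spread of members is not independent of it. The steadiest was PP7435_Chr1-1752, with a coding length of 5577 bases. In acetate it had 96.5, 105 and 85.8 CPM for a-type, 77.2, 105 and 80.0 CPM for α-type and 65.5, 45.0 and 64.3 CPM for wild type. In YPD it had 534, 501 and 502 CPM for a-type, 552, 498 and 562 CPM for α-type and 568, 498 and 504 CPM for wild type. Its YPD values thus hardly differed between libraries or strains. PP7435_Chr3-0889 was the next steadiest, with 7.04 to 41.8 CPM in acetate and 304 to 392 CPM in YPD.

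At the other end, 5 members moved together between YPD libraries: PP7435_Chr1-0360, PP7435_Chr2-1271, PP7435_Chr4-0270, PP7435_Chr4-0445 and PP7435_Chr4-0457. They were grouped after their values were seen, as the only members with at least a 3-fold range among replicates in each YPD group once 5 CPM were added to every value. Without the added 5 CPM, PP7435_Chr4-0205 also reached that range, with 152, 459 and 360 CPM for a-type, 335, 141 and 443 CPM for α-type and 238, 37.6 and 132 CPM for wild type in YPD, in a different arrangement. In acetate PP7435_Chr2-1271 had 25.2, 22.7 and 12.3 CPM for a-type, 18.9, 9.14 and 23.3 CPM for α-type and 9.55, 25.3 and 6.28 CPM for wild type. In YPD it had 53.0, 220 and 879 CPM for a-type, 679, 247 and 41.9 CPM for α-type and 16.8, 369 and 0 CPM for wild type. In wild type 1 YPD library was high, and the other 2 did not exceed the highest acetate library. PP7435_Chr1-0360 had 17.3 to 53.9 CPM in the 9 acetate libraries, and in YPD 49.5, 123 and 498 CPM for a-type, 458, 414 and 55.8 CPM for α-type and 30.2, 621 and 4.27 CPM for wild type. In all 5 genes the high wild-type library was replicate 2, the high a-type library was replicate 3, the low a-type library was replicate 1 and the low α-type library was replicate 3. This arrangement with a 3-fold range in each strain was present in 8.33% of members and in 25 of the 2232 genes, or 1.12%. Without the condition on the range it was present in 8 members, or 13.3%, and in 6.94% of the 2232 genes. The arrangement was read from these same 5 members, and the rule used group means, which a single high library can raise. These shares are therefore a description and no evidence of a trait of the members.

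**Figure D4:**
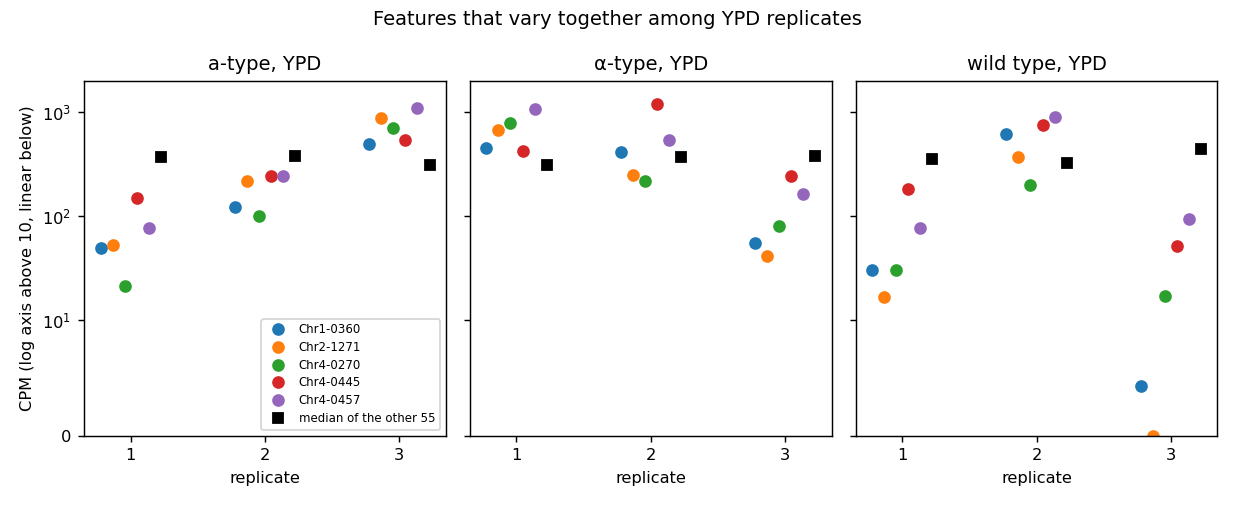
CPM of the 5 genes in each YPD library (vertical, log scale above 10 and linear below), by strain and replicate, with the median of the other 55 members as black squares. The 5 genes lie high in a-type replicate 3 and wild-type replicate 2 and low in a-type replicate 1 and wild-type replicates 1 and 3, while the median of the other members changes little between libraries.

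Most acetate against YPD values of these genes in wild type and a-type rest on single YPD libraries. Without replicate 2 of wild type in YPD, the log2 fold change in wild type was 0.95 for PP7435_Chr1-0360, 0.80 for PP7435_Chr2-1271, -0.73 for PP7435_Chr4-0270 and -1.03 for PP7435_Chr4-0457, and none of the 4 was called. Without replicate 3 of a-type in YPD, the a-type value was -1.38 for PP7435_Chr1-0360, -1.34 for PP7435_Chr4-0270 and -1.81 for PP7435_Chr4-0457, and none of the 3 was called. PP7435_Chr4-0445 was called in every strain whichever library was left out. In α-type PP7435_Chr1-0360 also missed the threshold without YPD replicate 1 (log2 fold change -2.28) or 2 (-2.36), and without acetate replicate 2 (-2.64) or 3 (-2.59). It did so in a-type without acetate replicate 1 (-2.78) or 3 (-2.72), and in wild type without acetate replicate 2 (-2.54) or 3 (-2.30). PP7435_Chr2-1271 did so in wild type without acetate replicate 1 (-2.72) or 3 (-2.61).

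Other members went the opposite way among the same libraries. With no condition on the range, in 14 of 60 genes, or 23.3%, wild-type replicate 2 and a-type replicate 3 were the lowest and α-type replicate 3 the highest of their YPD group, against 9.99% of the 2232 genes. This arrangement was also chosen after the values were seen, and it set no condition on which a-type library was highest. Its shares are a description only. In wild type PP7435_Chr3-0187 had 8.19, 11.3 and 1.57 CPM in acetate and 574, 10.2 and 402 CPM in YPD, so its YPD replicate 2 lay at the level of the acetate libraries. In a-type it had 13.4, 10.6 and 16.9 CPM in acetate and 459, 469 and 392 CPM in YPD, with no overlap. PP7435_Chr4-0829, chosen after its values were seen, had 61.5 CPM in the same wild-type replicate 2, against 615 and 342 CPM in the other 2. What differed between the YPD replicates of a strain was not tested.

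Between strains in YPD, 0 of 60 members were called for a-type against wild type (background 0.0549%), 0 for α-type against wild type (0.0274%) and 0 for a-type against α-type (0.0549%), by edgeR on the 9 YPD libraries. At an unadjusted p under 0.05 there were 11 members for a-type against wild type, 10 lower and 1 higher in a-type, against 5.6% of all features tested. There were 6 for α-type against wild type (5 lower, 1 higher; 3.21% of all features) and 0 for a-type against α-type (1.34%). DESeq2 called 2, 0 and 0 members, with no share over all features given. Median log2 fold changes over the members were -0.19, -0.12 and -0.15 in the same order. The rule used the YPD levels of all strains, so these counts are not independent of it.

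The largest of these differences was that of PP7435_Chr3-0228, with a log2 fold change of -2.25 (SE 0.63) for a-type over wild type and an edgeR adjusted p of 0.609. DESeq2 called it (-2.29) together with PP7435_Chr3-0327 (-2.10). With edgeR on all 18 libraries both were called, at -2.31 and -2.10, as was PP7435_Chr1-2632, at -1.53. That fit takes a common spread per gene from both media, which had been found too small for YPD. Its calls therefore add no independent support. PP7435_Chr3-0327 had 152, 242 and 138 CPM for a-type, 187, 194 and 213 CPM for α-type and 326, 242 and 1393 CPM for wild type in YPD. A single library, wild-type replicate 3, held its high value, and without that library the edgeR value of PP7435_Chr3-0228 was -1.21. For α-type against wild type the largest value was that of PP7435_Chr4-0270, with 2.05 (SE 1.06) and an edgeR adjusted p of 0.999.

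In acetate most members, like most of the 2232 genes, had their lowest mean in wild type by library totals, and fewer did so with TMM scaling. By library totals the wild-type mean was the lowest of the strains in 47 of 60 members, the a-type mean in 8 and the α-type mean in 5, and among the 2232 genes wild type was lowest in 70.9%. The median log2 ratio of acetate means was 0.35 for a-type over wild type and 0.34 for α-type over wild type among members, and 0.35 and 0.30 among the 2232. With TMM scaling, which assumes that most genes do not differ between libraries, the member medians were 0.05 and 0.07, those of the 2232 genes were 0.00 and -0.03, and wild type was lowest in 28 members and in 41.9% of the 2232. All 3 a-type libraries lay above all 3 wild-type libraries in 17 members by library totals (background 46.6%) and in 6 with TMM (19.7%). For α-type these counts were 14 (42.8%) and 4 (18.7%). The rule limited these ratios to between 0.5 and 2, so large strain differences could not occur among members.

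**Figure D5:**
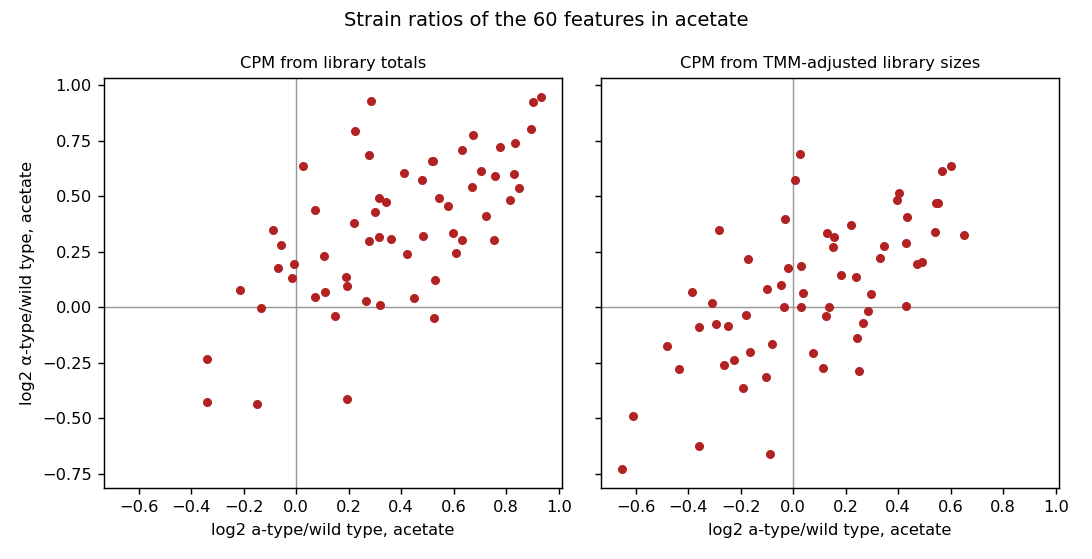
Log2 ratio of the acetate means, α-type over wild type (vertical) against a-type over wild type (horizontal), with 1 point for each of the 60 members, by library totals (left) and by TMM-scaled totals (right). On the left 50 members lie right of 0 and 53 above 0, and on the right 35 and 37 do.

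The size of the acetate response was also compared between strains, as an interaction in the fit of 18 libraries. No member was called: 0 of 60 for a-type against wild type (background 6.9%), 0 for α-type against wild type (4.16%) and 0 for a-type against α-type (0.146%), by edgeR. At an unadjusted p under 0.05 there were 9 members for a-type against wild type, all with the smaller decline in a-type, against 18.6% of all features. There were 7 for α-type against wild type, all with the smaller decline in α-type (17.1% of all features), and 2 for a-type against α-type (3.28%). DESeq2 called 2, 0 and 0 members in the same order, with no share over all features given. The lowest edgeR adjusted p was 0.0765, for PP7435_Chr3-0213, whose log2 decline was smaller by 1.88 (SE 0.63) in a-type than in wild type. Because the limits on ratios in every strain bound how far members can differ here, these counts too depend on the rule.

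In this comparison of responses, leaving out single libraries or using another tool added a few calls. The 2 members called by DESeq2 were PP7435_Chr3-0213 (1.89) and PP7435_Chr3-0327 (2.28) for a-type against wild type. Without wild-type replicate 2 in YPD, edgeR called PP7435_Chr3-0190 and PP7435_Chr3-0327 for a-type (1.14 and 2.64) and for α-type (1.12 and 2.66) against wild type. Without wild-type replicate 1 in YPD it called PP7435_Chr3-0327 (2.59), without a-type replicate 2 in YPD PP7435_Chr3-0213 (2.33), and without a-type replicate 3 in YPD PP7435_Chr3-1214 (1.09), each for a-type against wild type.

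Members lay on all 4 chromosomes, with 15 of 1487 genes on chromosome 1 (1.01%), 10 of 1226 on chromosome 2 (0.816%), 22 of 1178 on chromosome 3 (1.87%) and 13 of 940 on chromosome 4 (1.38%). In ID order 3 pairs of members were neighbours: PP7435_Chr3-0187 with PP7435_Chr3-0188, PP7435_Chr3-0228 with PP7435_Chr3-0229, and PP7435_Chr3-0889 with PP7435_Chr3-0890. PP7435_Chr3-0188 averaged 73.1, 74.2 and 36.8 CPM for a-type, α-type and wild type in acetate, against 1653, 1405 and 744 CPM in YPD. Like its neighbour, it was low in wild-type replicate 2 in YPD, at 263 CPM against 1310 and 658 CPM in the other 2. PP7435_Chr3-0229 averaged 17.2, 19.3 and 19.4 CPM in acetate, against 169, 202 and 381 CPM in YPD, and was highest in wild-type replicate 3, as was PP7435_Chr3-0228. PP7435_Chr3-0888, next to the last of these pairs, was among the 10 genes left out by the strain ratio alone, with 31.3, 36.6 and 12.5 CPM in acetate against 327, 323 and 363 CPM in YPD.

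A gene beside members could also differ from them. PP7435_Chr3-0189, between the members PP7435_Chr3-0188 and PP7435_Chr3-0190, had higher means in acetate, at 224, 231 and 212 CPM for a-type, α-type and wild type, against 78.2, 83.9 and 92.3 CPM in YPD. PP7435_Chr1-0168, between the members PP7435_Chr1-0167 and PP7435_Chr1-0169, had 33.6, 24.5 and 23.7 CPM in acetate against 6.77, 5.82 and 7.33 CPM in YPD. These genes were chosen for their place and not tested here. Order in the ID list was read from the serial numbers, and strand and distance are not given in the files used here.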

How the data were processed

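Each of the 18 samples had a kallisto table with estimated counts and TPM that the authors deposited, per the file headers. The submitters' processing notes list kallisto, TopHat2, DESeq2 and SAMtools, as well as Trim Galore 0.4.2 and FastQC 0.11.2, and assign them no role. No genome build is given in the sources used here. CPM were computed from the deposited estimated counts and library sums. The deposited TPM were used only to compare levels between genes. Lengths are called coding lengths because 99.9% were multiples of 3. A total of 54 per-sample columns in 9 tables of the whole series were not used.

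For the tests the estimated counts were rounded, and edgeR 4.0.16 under R 4.3.3 was used (filterByExpr, TMM, quasi-likelihood, Benjamini-Hochberg adjusted p under 0.05 over all features tested). Acetate against YPD and the strain differences in response were fitted on 18 libraries (4783 features), and strains in YPD on the 9 YPD libraries (3646 features). YPD was fitted alone because the spread of the 18 libraries together had been found too small for it. The 18-library fits take a common spread per gene for both media, so their SEs and p-values may understate the YPD spread. Each edgeR SE was back-calculated as the absolute log2 fold change over the square root of the F statistic of the test, and is therefore approximate. DESeq2 1.42.0, other scalings and filters, a replicate block and leaving out each library were alternatives. Scripts were tested on simulated data. No pair of replicate libraries agreed within sampling noise (chi-square per degree of freedom 2.05 to 3.64 in acetate and 5.19 to 13.1 in YPD).

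Members, lists and the rule for named genes (lowest ratio, highest level, median, YPD spread, neighbours, strain differences, limits) were chosen with earlier results of these data known. IDs outside that rule were chosen after their values were seen. Kallisto divides reads among similar transcripts: 3 members, PP7435_Chr1-0701, PP7435_Chr4-1012 and PP7435_Chr1-0169, had estimated counts that were not whole, so part of their reads also matched other transcripts.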

Additional observations from a re-analysis of the deposited data

How the results depend on the processing

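Depth limits the acetate values, of which 129 of 540 rest on fewer than 10 counts. A ratio limit of 0.1 left 14 of the 60 genes. Leaving out 1 library gave 52 to 60 genes that met the rule, with genes outside the 60 included. Of the 60 themselves it kept 51 to 59. TMM-scaled totals kept 54 of the 60 and group medians kept 46. The median log2 ratio of acetate to YPD was -3.22 in a-type, -3.46 in α-type and -3.68 in wild type with 1 CPM added in place of 5, and -2.94 in a-type and -3.33 in wild type with TMM-scaled totals. Leaving out 1 library gave -3.08 to -3.00 in a-type, -3.26 to -3.09 in α-type and -3.62 to -3.47 in wild type. The number of members called lower in acetate was then 57 to 60, 59 to 60 and 56 to 60 in the same order. Without YPD replicate 2 of wild type, the log2 fold change reversed to 0.95 for PP7435_Chr1-0360 and 0.80 for PP7435_Chr2-1271. Over all the libraries left out it ran from -3.13 to 0.95 for PP7435_Chr1-0360 and from -3.76 to 0.80 for PP7435_Chr2-1271. For a-type against wild type in YPD, DESeq2 called 2 members and edgeR on 18 libraries called 3, against 0. For the response, DESeq2 called 2 for a-type against wild type, and leaving out 1 library gave 0 to 2 for a-type and 0 to 2 for α-type against wild type. The cause of these changes was not tested. For the tests, shares over all features are given for the main edgeR fits only, and none stands beside the counts of other settings.

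Same-numbered samples did not deviate together (correlations of -0.06 to 0.05 between media and -0.31 to 0.25 between strains in YPD), so the numbers were not taken to pair the samples. With so few replicates this cannot show that they are unpaired. The main fits treated the libraries as independent, so their acetate against YPD p-values leave the shared cultures out of account. With the replicate number as a block, 60 members were called lower in a-type, 60 in α-type and 57 in wild type. There PP7435_Chr1-0360 and PP7435_Chr2-1271 also missed the threshold. In the comparisons of strains in YPD and of responses 0 were called. The rule used the acetate against YPD contrast, and no share over all features is given for the block fit. Its counts are therefore a description only.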
